A study of Arabidopsis thaliana with 18 samples.

Results

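Nuclear photosynthesis genes code for the chloroplast proteins that capture light, move electrons and fix CO2. The 48 genes described here were taken by their gene identifiers. They code for the light-harvesting proteins of both photosystems, the nuclear subunits of photosystems I and II, plastocyanin, the Rieske protein, subunits of the chloroplast ATP synthase and the small subunit of Rubisco. They made up 48 of the 27587 genes in the table and 69 of its 48268 transcripts, and all 48 were found. RNA had been sequenced from whole *Arabidopsis thaliana* seeds of 2 genotypes at 3 stages, with 3 biological replicates of at least 100 seeds in each of the 6 groups, giving 18 libraries. The groups were *ros1-4* and Col-0, each as seeds that were mature and dried, at germination stage II (seed coat just ruptured and the radicle tip showing) and at germination stage IV (radicle emerged and expanding). Col-0 is the wild-type accession. *ros1-4* is a T-DNA insertion line in the Col-0 background, and the gene it disrupts, ROS1, codes for an enzyme that removes DNA methylation. All of these seeds had formed on plants kept at 23 °C, and the germinating seeds were imbibed in water in the light.

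Light energy is collected by chlorophyll-binding antenna proteins, LHCB around photosystem II and LHCA around photosystem I. Photosystem II splits water, and electrons then pass through the cytochrome b6f complex and plastocyanin to photosystem I, while ATP synthase uses the proton gradient and Rubisco fixes CO2. A dry seed holds plastids with little photosynthetic machinery, and its genes are switched on as the seedling greens, which is why these genes are common markers of light-driven seedling development. In whole seeds, fewer cells of a type and less RNA per cell cannot be told apart.

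The 250 bases upstream of the transcription start are shown for 6 members that lead the results, as a pair of LHCB1 genes and a pair of PSBQ genes that moved in opposite directions between the genotypes at stage II, the most abundant antenna gene of dry seeds, and an RBCS gene with a large rise. In each pair the lower value, of LHCB1.5 and of PSBQ-1, is the less certain, for reasons given with these genes below. The sequences are from the TAIR10.1 assembly of RefSeq, written 5′ to 3′ on the strand of the gene. Capitals mark the G-box (CACGTG), the I-box (GATAAG) and the motif bound by GLK transcription factors (CCAATC), each searched on both strands. The regions are chr1:10477635-10477884 (plus strand) for LHCB1.3, chr2:14523569-14523818 (minus strand) for LHCB1.5, chr4:2673244-2673493 (minus strand) for PSBQ-2, chr4:11334102-11334351 (plus strand) for PSBQ-1, chr5:208616-208865 (plus strand) for LHCB4.1 and chr5:15382072-15382321 (minus strand) for RBCS2B.
LHCB1.3: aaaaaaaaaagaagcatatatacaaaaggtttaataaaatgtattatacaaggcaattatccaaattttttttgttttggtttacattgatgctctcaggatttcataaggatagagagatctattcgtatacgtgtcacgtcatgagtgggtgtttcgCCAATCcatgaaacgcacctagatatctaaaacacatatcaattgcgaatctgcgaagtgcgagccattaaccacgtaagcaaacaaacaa
LHCB1.5: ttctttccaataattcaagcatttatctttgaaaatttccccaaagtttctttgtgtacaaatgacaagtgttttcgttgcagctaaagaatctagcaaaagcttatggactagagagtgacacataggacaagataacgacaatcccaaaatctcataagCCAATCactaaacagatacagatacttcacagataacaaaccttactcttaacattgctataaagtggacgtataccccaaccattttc
PSBQ-2: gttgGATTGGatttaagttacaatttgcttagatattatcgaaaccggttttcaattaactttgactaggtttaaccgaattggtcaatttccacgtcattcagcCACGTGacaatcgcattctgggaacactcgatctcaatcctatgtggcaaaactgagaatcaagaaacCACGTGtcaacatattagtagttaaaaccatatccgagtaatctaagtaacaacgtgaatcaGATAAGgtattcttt
PSBQ-1: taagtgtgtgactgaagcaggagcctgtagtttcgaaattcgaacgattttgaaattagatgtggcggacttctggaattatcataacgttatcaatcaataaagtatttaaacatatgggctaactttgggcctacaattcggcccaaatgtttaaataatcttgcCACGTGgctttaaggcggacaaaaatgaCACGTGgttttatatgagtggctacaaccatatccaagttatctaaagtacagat
LHCB4.1: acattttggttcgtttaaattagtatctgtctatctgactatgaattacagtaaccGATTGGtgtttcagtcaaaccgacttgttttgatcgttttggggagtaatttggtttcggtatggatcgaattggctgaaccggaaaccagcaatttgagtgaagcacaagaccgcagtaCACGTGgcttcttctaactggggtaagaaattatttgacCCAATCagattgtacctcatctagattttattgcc
RBCS2B: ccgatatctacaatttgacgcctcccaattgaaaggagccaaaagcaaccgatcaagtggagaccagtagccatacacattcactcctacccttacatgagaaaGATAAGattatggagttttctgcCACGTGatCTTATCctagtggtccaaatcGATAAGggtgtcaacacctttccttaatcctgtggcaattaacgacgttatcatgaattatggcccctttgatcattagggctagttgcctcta

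All 3 motifs were more frequent upstream of the members than upstream of genes in general. The G-box was found in 9 of 48 members (18.8%, against 6.49% of 27443 promoters), the I-box in 12 (25%, against 12.3%) and the GLK motif in 14 (29.2%, against 10.2%). The abscisic acid response core ACGTGG, which overlaps a G-box that is followed by G, stood in 14 members (29.2%, against 8.23%). The GT1 core GGTTAA (14.6%, against 14.6%), the evening element AAATATCT (4.17%, against 4.79%) and TATAAA (47.9%, against 47.4%) were as frequent as elsewhere. The GLK motif was spread unevenly, with 5 of 9 major LHCII genes, 3 of 5 genes for electron carriers and ATP synthase, 0 of 10 photosystem I genes and 0 of 4 RBCS genes. These shares are a description with no test, and a match is only a match of letters in this window. LHCB1.3 and LHCB1.5, which went opposite ways between the genotypes, share a GLK motif 91 and 89 bases before the start.

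The libraries held between 18737837 and 20787603 counts, so depth was nearly even. The 10 genes with most counts held, in mature seeds, 33.3 to 36% of the counts in libraries labelled *ros1-4* and 28.2 to 30.4% in Col-0, against 6.85 to 7.67% in germinating seeds, and all levels below were therefore scaled by TMM, which corrects for such composition. Storage protein and other seed maturation markers, a list of 8 genes, took 21.9 to 25.0% of the counts in mature seeds labelled *ros1-4* and 20.2 to 20.7% in Col-0, and at most 0.269% in any germinating library. ROS1 (AT2G36490) itself went against the labels. Its counts at stage II were 1286, 1256 and 1221 in the libraries labelled *ros1-4* and 256, 273 and 281 in Col-0 (log2 fold change 2.04 ± 0.07 SE, edgeR adjusted p = 5.5e-06). At stage IV the counts were 1134, 1203 and 1331 against 296, 312 and 252 (1.99 ± 0.10, edgeR adjusted p = 1.4e-04), while in mature seeds they were lower, 1219, 1466 and 1466 against 2578, 2455 and 2547 (-0.55 ± 0.07, edgeR adjusted p = 2.2e-05). These are counts over the whole gene, and the position of the insertion was not used here. For this reason the mutant libraries are called the libraries labelled *ros1-4*, and every direction between the genotypes rests on that label.

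In mature seeds most of the 48 genes were close to silent. Their median level was 1.73 CPM (counts scaled to a common library size, here corrected by TMM) in both genotypes, 17 members lay under 1 CPM in seeds labelled *ros1-4* and 15 in Col-0, and 1 member exceeded 100 CPM in each. That member was LHCB4.1 (AT5G01530), the gene of the minor antenna protein CP29. It had 162 ± 7.28 CPM in seeds labelled *ros1-4* and 155 ± 18.0 CPM in Col-0 (SD, n = 3 each) and alone held 37.8 and 34.3% of all member counts. Per kilobase of transcript LHCB4.1 stood first, at 116 and 111 CPM per kb, and the next were PSBR (46.7 and 46.5) and RBCS1A (27.4 and 48.9), with PSBR second in seeds labelled *ros1-4* and RBCS1A second in Col-0. The fourth place was held by PSAD2 in seeds labelled *ros1-4* (25.3) and by LHCB4.2 in Col-0 (22.5). At stage II RBCS1A (AT1G67090), a gene of the Rubisco small subunit, had taken the first place per kilobase at 1940 CPM per kb in seeds labelled *ros1-4* and 1994 in Col-0, and it kept it at stage IV at 2291 and 2460. LHCB4.1 was then only 12th and 17th at stage II.

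**Figure D1:**
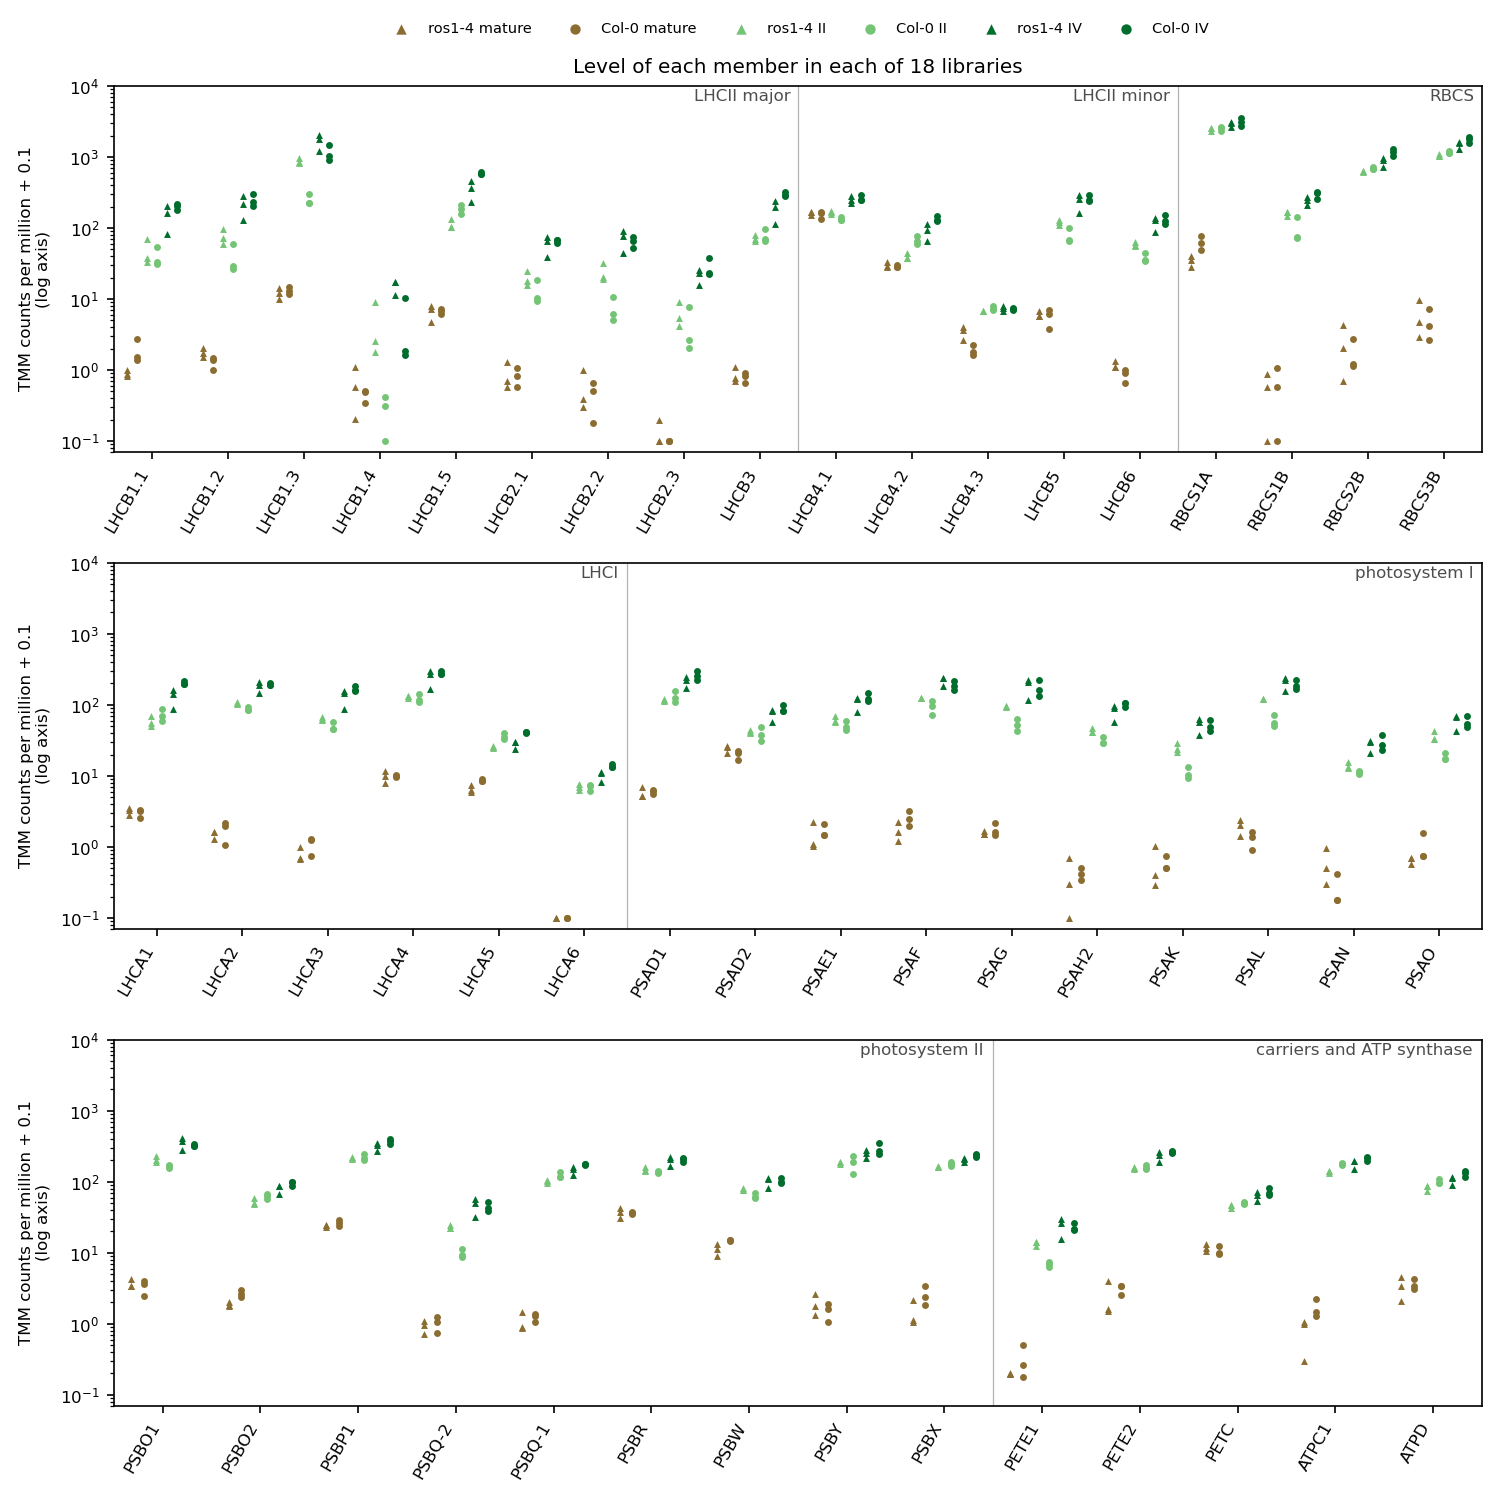
Level of each of the 48 members in the 18 libraries, as TMM-scaled CPM with 0.1 added, on a log vertical axis, with the members grouped by role along the horizontal axis. Triangles are libraries labelled *ros1-4* and circles Col-0, brown for mature seeds, light green for stage II and dark green for stage IV, so that most members stand low in mature seeds, LHCB4.1 stands out there at 162 and 155 CPM, and RBCS1A is the highest at stages II and IV.

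Between mature seeds and stage II nearly every member rose, in both genotypes. In seeds labelled *ros1-4*, 47 of 48 members rose and 0 fell, and in Col-0 46 of 47 rose and 1 fell (edgeR, adjusted p under 0.05). Over all genes tested, 50.3% rose and 39.3% fell in seeds labelled *ros1-4*, and 47.3% rose and 41% fell in Col-0. The median log2 fold change of the members was 5.73 in seeds labelled *ros1-4*, where that of all genes was 0.33, and 4.94 in Col-0, where it was 0.17. Setting the members without a read in mature seeds at their lower bound left both medians as they were. Without composition scaling the median of all genes shifted to 1.68 and 1.14 and that of the members to 7.07 and 5.89, so the members stood 5.39 and 4.75 above all genes, against 5.40 and 4.77 with the scaling. LHCB1.4, too low in Col-0, was the member not tested there.

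The share of all counts taken by the 48 genes shows the same change in one value. In libraries labelled *ros1-4* it was 0.0215, 0.0230 and 0.0236% in mature seeds, 1.19, 1.14 and 1.15% at stage II and 1.89, 1.85 and 1.37% at stage IV. The Col-0 libraries had 0.0309, 0.0269 and 0.0316% in mature seeds, 0.957, 0.997 and 1.12% at stage II and 1.80, 1.69 and 2.04% at stage IV. Within a genotype the 3 stages did not overlap. The mean was 51.2 times as high at stage II as in mature seeds for seeds labelled *ros1-4* and 34.3 times for Col-0, and 1.47 and 1.80 times as high at stage IV as at stage II. With TMM-scaled library sizes the step to stage II was smaller and the genotypes closer, 20.1 times in seeds labelled *ros1-4* and 17.5 times in Col-0. With 3 libraries against 3 an exact two-sided permutation test cannot go below 0.1, and each of these 4 comparisons gave 0.1.

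**Figure D2:**
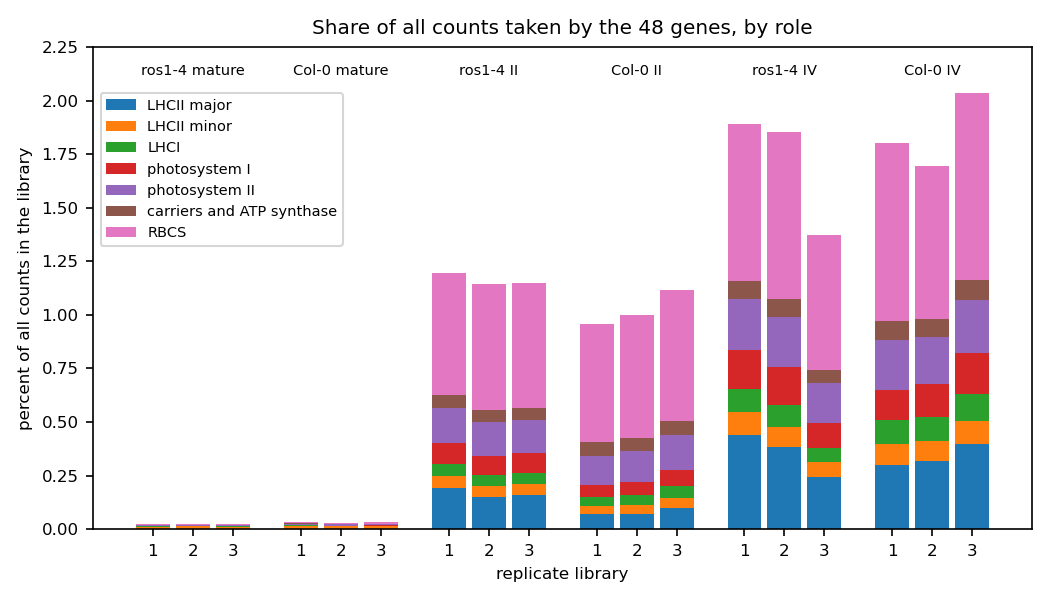
Share of all counts taken by the 48 members, in percent, as 1 stacked bar for each of the 18 libraries, with colours for the 7 roles and the libraries labelled *ros1-4* left of Col-0 at each stage. The bars are barely visible in mature seeds, at 0.0215 to 0.0316%, and reach 0.957% or more in every germinating library, and replicate 3 of the libraries labelled *ros1-4* at stage IV is lower than the others of that stage at 1.37%.

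The major antenna genes of photosystem II, LHCB1 to LHCB3, rose in all 9 cases in seeds labelled *ros1-4* and in all 8 tested in Col-0. LHCB1.3 (AT1G29930) was the most abundant. It had 97, 127 and 145 counts in mature seeds labelled *ros1-4*, 27394, 23035 and 23884 at stage II and 54392, 48627 and 32107 at stage IV. The Col-0 libraries held 182, 159 and 143 counts in mature seeds, 5723, 5422 and 7504 at stage II and 22838, 25580 and 36616 at stage IV. No stage overlapped another in either genotype, and the step to stage II was a log2 fold change of 6.18 ± 0.12 in seeds labelled *ros1-4* (edgeR adjusted p = 4.3e-15) and 4.28 ± 0.15 in Col-0 (edgeR adjusted p = 4.4e-09). LHCB2.3 (AT3G27690) was absent or nearly so from dry seeds. It had 0, 1 and 0 counts in mature seeds labelled *ros1-4* against 250, 115 and 150 at stage II, a ratio of 187 with an exact 95% counting interval of 33.4 to 7391. In Col-0 it had 48, 62 and 187 counts at stage II and 0 in all 3 mature libraries, and was at least 49.9-fold higher, taking 3 counts over the group as the floor. Counting intervals and floors cover counting error only.

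The minor antenna genes of photosystem II behaved differently from one another. LHCB6 (AT1G15820), the gene of CP24, followed the major antenna with 1745, 1591 and 1564 counts at stage II against 10, 13 and 10 in mature seeds labelled *ros1-4*, and 857, 841 and 1102 against 7, 10 and 11 in Col-0. Its log2 fold changes were 5.73 ± 0.14 (edgeR adjusted p = 2.8e-14) and 5.64 ± 0.20 (edgeR adjusted p = 4.6e-09). LHCB4.1, already high in dry seeds, had 4874, 4436 and 4633 counts at stage II against 1631, 1732 and 1555 in mature seeds labelled *ros1-4*, and 3204, 3084 and 3535 against 2033, 1677 and 2093 in Col-0. After scaling this was a log2 fold change of 0.03 ± 0.07 in seeds labelled *ros1-4* (edgeR adjusted p = 0.717) and -0.23 ± 0.09 in Col-0 (edgeR adjusted p = 0.0397), the 1 call against the direction of the others. The Col-0 call was lost in 4 of 6 fits that left out a library, with adjusted p up to 0.152, and with library size alone the values of LHCB4.1 were 1.39 in seeds labelled *ros1-4* and 0.74 in Col-0, both past the test. LHCB4.2 (AT3G08940) and LHCB4.3 (AT2G40100) rose in both genotypes, by 0.39 and 0.99 on the log2 scale in seeds labelled *ros1-4* and by 1.22 and 2.03 in Col-0.

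All 6 LHCA genes, the antenna of photosystem I, rose at stage II in both genotypes. LHCA4 (AT3G47470), the one with most counts, had 3742, 3689 and 3513 counts at stage II against 98, 82 and 119 in mature seeds labelled *ros1-4*, and 2800, 2839 and 3522 against 122, 128 and 123 in Col-0. The log2 fold changes were 3.72 ± 0.10 (edgeR adjusted p = 9.6e-14) and 3.63 ± 0.11 (edgeR adjusted p = 2.5e-09). LHCA6 (AT1G19150), a minor antenna protein that helps link photosystem I to the NDH complex, had no read in any of the 6 mature libraries. Its counts at stage II were 213, 193 and 172 in seeds labelled *ros1-4* and 186, 170 and 152 in Col-0, at least 69.9-fold and at least 85.4-fold higher than in mature seeds. LHCA5 (AT1G45474) changed least, by 1.97 and 2.07 on the log2 scale.

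All 10 photosystem I subunit genes rose in both genotypes, with log2 fold changes of 0.78 to 7.32 in seeds labelled *ros1-4* and 0.98 to 6.56 in Col-0. PSAH2 (AT1G52230), a subunit at which LHCII docks, changed most, with 1320, 1172 and 1144 counts at stage II against 2, 0 and 6 in mature seeds labelled *ros1-4* and 721, 692 and 882 against 4, 3 and 5 in Col-0. PSAD1 (AT4G02770), which codes for the ferredoxin-docking subunit, had 3425, 3152 and 3290 counts at stage II against 51, 72 and 52 in mature seeds labelled *ros1-4*, and 2751, 2964 and 3928 against 68, 76 and 77 in Col-0. Its log2 fold changes were 4.34 ± 0.10 (edgeR adjusted p = 2.9e-14) and 4.46 ± 0.16 (edgeR adjusted p = 5.7e-09). The smallest rise was that of its partner gene PSAD2 (AT1G03130), which dry seeds already held at 24.2 and 19.8 CPM.

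The 9 photosystem II genes, which code for the extrinsic proteins of the oxygen-evolving complex (PSBO, PSBP, PSBQ) and small membrane subunits, all rose in both genotypes. PSBP1 (AT1G06680) had the most counts, 6296, 6024 and 5862 at stage II against 223, 258 and 248 in mature seeds labelled *ros1-4*, and 5011, 5187 and 6234 against 363, 330 and 292 in Col-0. It rose by 3.17 ± 0.07 (edgeR adjusted p = 1.8e-14) and 3.07 ± 0.11 (edgeR adjusted p = 6.8e-09) on the log2 scale. The largest rises were those of PSBX (AT2G06520) in seeds labelled *ros1-4*, 6.90 ± 0.13 (edgeR adjusted p = 4.0e-15), and of PSBY (AT1G67740) in Col-0, 6.99 ± 0.30 (edgeR adjusted p = 1.5e-08). PSBX had 4579, 4547 and 4557 counts at stage II against 10, 10 and 21 in mature seeds labelled *ros1-4*. PSBY had 3197, 4545 and 5696 counts at stage II against 12, 19 and 22 in mature Col-0 seeds, so its Col-0 libraries at stage II spread widely.

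The genes for electron carriers and ATP synthase, 5 in number, rose in every case. PETE2 (AT1G20340), the major plastocyanin gene, had 4566, 4258 and 4336 counts at stage II against 14, 16 and 39 in mature seeds labelled *ros1-4* and 3787, 3724 and 4245 against 41, 30 and 41 in Col-0. ATPC1 (AT4G04640), the gamma subunit of ATP synthase, had 3930, 3928 and 3657 counts against 2, 10 and 9, and 4391, 4257 and 4577 against 17, 15 and 26. Its log2 fold changes, the largest of the group, were 7.61 ± 0.16 (edgeR adjusted p = 9.8e-15) and 6.84 ± 0.13 (edgeR adjusted p = 3.3e-10). PETC (AT4G03280), the Rieske iron-sulfur protein, changed least, by 1.95 and 2.24.

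The 4 RBCS genes together took 0.566 to 0.586% of all counts at stage II in seeds labelled *ros1-4* and 0.553 to 0.612% in Col-0, against 0.0016 to 0.00267% and 0.00348 to 0.00561% in mature seeds. RBCS1A had 64481, 70964 and 70835 counts at stage II against 274, 424 and 361 in mature seeds labelled *ros1-4*, and 59108, 61723 and 66490 against 765, 609 and 941 in Col-0. It rose by 6.13 ± 0.13 (edgeR adjusted p = 1.2e-14) and 5.35 ± 0.18 (edgeR adjusted p = 3.8e-09) on the log2 scale. The RBCS genes of the chromosome 5 cluster rose further, RBCS1B (AT5G38430) by 8.51 and 7.63, RBCS2B (AT5G38420) by 8.10 and 8.74 and RBCS3B (AT5G38410) by 7.52 and 8.0. Their coding sequences are 94.1 to 97.2% identical, and with reads of 50 bases the split among them is uncertain. Summed, the 3 genes rose by 7.78 ± 0.25 in seeds labelled *ros1-4* and 8.20 ± 0.34 in Col-0.

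Between stages II and IV the rise went on, at a smaller size. In seeds labelled *ros1-4* 46 of 48 members rose and 0 fell, against 20.7% and 19.2% of all genes, and in Col-0 45 of 48 rose and 0 fell, against 21.8% and 16.8%. The median log2 fold change was 0.76 in seeds labelled *ros1-4* and 1.18 in Col-0, where all genes had a median of -0.01 in both. LHCB4.3 and LHCA5 passed the test in neither genotype (0.07 and 0.09 in seeds labelled *ros1-4*, -0.05 and 0.19 in Col-0). RBCS1A changed by 0.20 ± 0.07 in seeds labelled *ros1-4* (edgeR adjusted p = 0.0419, lost in 5 of 6 fits without a library) and by 0.30 ± 0.11 in Col-0 (edgeR adjusted p = 0.0637). In Col-0 the calls of PSBY, ATPC1 and ATPD were lost in 5, 4 and 4 of 6 such fits, and in seeds labelled *ros1-4* those of PSBW and ATPD in 5 and 4.

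By median the major antenna genes moved most in this step. The carriers, ATP synthase and Rubisco genes moved least, with photosystem II close to them. The minor LHCII and the LHCI genes lay between, at 0.92 and 0.80 in seeds labelled *ros1-4* and 0.99 and 1.17 in Col-0. Single genes departed from their group: in Col-0 RBCS1B rose by 1.61 and PETE1 by 1.73. The 9 major LHCII genes had a median of 1.59 in seeds labelled *ros1-4* and 2.38 in Col-0, the photosystem I genes 0.80 and 1.51, the photosystem II genes 0.47 and 0.67, the carriers and ATP synthase 0.44 and 0.53, and the RBCS genes 0.44 and 0.66. LHCB1.3 rose by 0.88 ± 0.16 (edgeR adjusted p = 0.00211) and 2.18 ± 0.21 (edgeR adjusted p = 0.00107). PSAK (AT1G30380), a peripheral subunit of photosystem I, had 1699, 1542 and 993 counts at stage IV against 813, 605 and 664 at stage II in seeds labelled *ros1-4*, and 1098, 1193 and 1472 against 253, 223 and 330 in Col-0. PETE1 (AT1G76100), the minor plastocyanin gene, had 800, 703 and 417 counts at stage IV against 394, 344 and 399 at stage II in seeds labelled *ros1-4*, and 521, 525 and 637 against 170, 149 and 185 in Col-0. Replicate 3 of the stage IV libraries labelled *ros1-4* was the lowest of its group in 48 of 48 members, and replicate 3 of Col-0 at stage II the highest in 43. Without the first, the median in seeds labelled *ros1-4* was 0.91 and 47 members rose, and without the second the Col-0 median was 1.33 and 46 rose.

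The comparison of the genotypes asked whether the *ros1-4* allele touched these genes at a given stage. In mature seeds few differences passed the test. Of 35 members with enough counts, 1 was higher and 2 were lower in seeds labelled *ros1-4*, against 13.8% and 13% of all genes, with a median log2 fold change of -0.02. By unadjusted p under 0.05 the numbers were 2 and 6, DESeq2 called 0 higher and 1 lower, and DESeq2 size factors in edgeR gave 1 and 1. The 13 members left out had too few counts. RBCS1A was lower, at 34.7 ± 6.49 CPM in seeds labelled *ros1-4* and 62.0 ± 13.6 CPM in Col-0 (SD, n = 3 each). Its counts of 274, 424 and 361 lay below the Col-0 counts of 765, 609 and 941 without overlap (log2 fold change -0.81 ± 0.14, edgeR adjusted p = 4.6e-04), and the call held in all 6 fits that left out a library. In the same libraries 7 of 8 seed storage markers were higher and 0 lower, and the endosperm markers took 4.33 to 4.78% of the counts against 2.14 to 3.11% in Col-0, and their part in the result was not tested.

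The remaining calls in mature seeds were less firm. PSBW (AT2G30570), a small photosystem II subunit, had 111, 94 and 133 counts against 187, 184 and 181 in Col-0 (-0.39 ± 0.14, edgeR adjusted p = 0.0472), and LHCB4.3 had 25, 37 and 40 against 19, 21 and 27 (0.92 ± 0.29, edgeR adjusted p = 0.028). The PSBW call was lost in 5 of 6 fits that left out a library and the LHCB4.3 call in 4, with adjusted p up to 0.183 and 0.113. LHCB4.1 did not pass (0.08 ± 0.08, edgeR adjusted p = 0.509), and with library size alone its value was -0.26. The share of the 48 genes in all counts was 0.761 times the Col-0 share, without overlap (exact two-sided permutation p = 0.1, the smallest possible), but with TMM-scaled library sizes the difference had p = 0.4 by the same permutation test. With library size alone the median of all genes moved to -0.34 and 13 members were lower and 0 higher.

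At stage II more members were higher than lower. In seeds labelled *ros1-4* 17 of 48 were higher and 6 lower, against 11.4% and 11.1% of all genes. The number lower was thus near the share of all genes, and only the number higher exceeded it. The median log2 fold change was 0.25, where that of all genes was 0.00. With near-identical paralogs summed the median was 0.10, with 16 higher and 6 lower of 42. The share of all counts was 1.13 times that of Col-0, 1.19, 1.14 and 1.15% against 0.957, 0.997 and 1.12%, without overlap (exact two-sided permutation p = 0.1, the smallest possible). With TMM-scaled library sizes the ratio was smaller, at 1.09, and the groups overlapped. The means were then 0.863 ± 0.020% in libraries labelled *ros1-4* and 0.793 ± 0.069% in Col-0 (SD, n = 3 each). Leaving out 1 library at a time gave between 15 calls (11 higher and 4 lower, without replicate 1 of the libraries labelled *ros1-4*) and 33 (26 higher and 7 lower, without replicate 3 of Col-0), and 15 of the 23 members kept their call in all 6 fits, with no change of sign in any. Library size alone moved the median of all genes by 0.06 only.

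The major antenna genes held both the largest rises and 1 fall. LHCB1.3, a gene of a single exon at chr1:10477885-10479114 (plus strand), was higher by 1.82 ± 0.12 on the log2 scale (edgeR adjusted p = 1.2e-04), at 886 ± 84.0 CPM in seeds labelled *ros1-4* and 251 ± 42.9 CPM in Col-0 (SD, n = 3 each), and the groups did not overlap. LHCB1.4 (AT2G34430), a scarce relative, had 249, 68 and 47 counts against 0, 5 and 8 in Col-0 (4.59 ± 0.94, edgeR adjusted p = 0.0113), and LHCB2.2 (AT2G05070) was higher by 1.74 ± 0.30 (edgeR adjusted p = 0.00564). LHCB1.5 (AT2G34420, chr2:14522524-14523568, minus strand) went the other way, with 3677, 2865 and 2899 counts against 3918, 4458 and 5295 (-0.71 ± 0.13, edgeR adjusted p = 0.00764), also without overlap. LHCB1.1, LHCB1.2, LHCB2.1, LHCB2.3 and LHCB3 did not pass the test, with values between -0.13 and 1.00. The LHCB1 genes share much sequence (86.7 to 96.4% of the coding bases, by pair), so reads could be split wrongly among them. Summed, LHCB1.1 to LHCB1.3 on chromosome 1 were higher by 1.62 ± 0.15 (edgeR adjusted p = 4.4e-04) and the neighbours LHCB1.4 and LHCB1.5 on chromosome 2 lower (-0.66 ± 0.14, edgeR adjusted p = 0.0143). All 50-base words of LHCB1.5 also occur in transcripts that overlap it on the other strand or in LHCB1.4, and counting by strand is not stated, so its level is the least certain of these.

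Among the other antenna genes LHCB4.2, with 1238, 1049 and 1059 counts against 1507, 1548 and 1904 in Col-0, was lower (-0.75 ± 0.11, edgeR adjusted p = 0.00245), while LHCB4.1, with 4874, 4436 and 4633 against 3204, 3084 and 3535, was higher (0.33 ± 0.06, edgeR adjusted p = 0.00888). Both code for CP29, their coding sequences are 81.1% identical, and neither shares a 50-base word with another gene. LHCB5 and LHCB6 were higher by 0.64 and 0.63. LHCA2 and LHCA3 were higher by 0.26 and 0.37, and LHCA5 was lower (-0.51 ± 0.08, 710, 732 and 690 counts against 841, 833 and 1004, edgeR adjusted p = 0.00386). The calls of LHCB5, LHCA2 and LHCA3 were lost in 5 of 6 fits that left out a library, and the others of this paragraph held.

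In photosystem I, 5 of 10 members were higher in seeds labelled *ros1-4* and 0 lower. They were PSAK (1.19 ± 0.16, edgeR adjusted p = 0.00168), PSAL (1.03), PSAO (0.98), PSAG (0.85) and PSAH2 (0.49), subunits at the rim of the complex, where the LHCA and LHCII antenna bind. PSAK had 813, 605 and 664 counts against 253, 223 and 330 in Col-0, without overlap. The stromal subunits PSAD1 (-0.15), PSAD2 (0.09) and PSAE1 (0.31), the plastocyanin-docking subunit PSAF (0.43) and the lumenal PSAN (0.31) did not pass. The value of PSAF lay close to that of PSAH2, so the calls do not divide cleanly by position. PSAE2 (AT2G20260), a second gene of the stromal PSAE subunit and not a member, had 832, 710 and 762 counts against 388, 407 and 552 in Col-0, without overlap. The call of PSAH2 was lost in 1 of 6 fits without a library. PSAG shares 58.8% of its 50-base words with a gene on the other strand.

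In photosystem II the PSBQ pair moved apart. PSBQ-2 (AT4G05180) had 688, 624 and 621 counts against 229, 208 and 282 in Col-0 (1.25 ± 0.11, edgeR adjusted p = 3.2e-04), while the more abundant PSBQ-1 (AT4G21280) had 2989, 2828 and 2688 against 2962, 2841 and 3376 (-0.29 ± 0.07, edgeR adjusted p = 0.0253). The raw counts of PSBQ-1 overlap, but the scaled values, 107, 101 and 96.2 CPM against 118, 118 and 135 CPM in Col-0, do not. Its call was lost without any 1 of the 3 libraries labelled *ros1-4*, with edgeR adjusted p up to 0.108. PSBO1 and PSBW were higher by 0.32 and 0.29, lost in 4 and 5 of 6 such fits. PSBP1, with the most counts of the group, did not pass (-0.03 ± 0.08, edgeR adjusted p = 0.806).

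Of the carriers, PETE1 was higher (394, 344 and 399 counts against 170, 149 and 185 in Col-0, 1.00 ± 0.10, edgeR adjusted p = 6.4e-04), whereas the far more abundant PETE2 was not (-0.02 ± 0.06, edgeR adjusted p = 0.876). ATPC1, with 3930, 3928 and 3657 counts against 4391, 4257 and 4577, was lower (-0.38 ± 0.05, edgeR adjusted p = 0.00205). ATPD (AT4G09650), the delta subunit, was lower (-0.29 ± 0.08, edgeR adjusted p = 0.0372), a call lost in 5 of 6 fits without a library. None of the 4 RBCS genes passed, and RBCS1A, the member with most counts, differed by -0.04 ± 0.06 (edgeR adjusted p = 0.657).

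**Figure D3:**
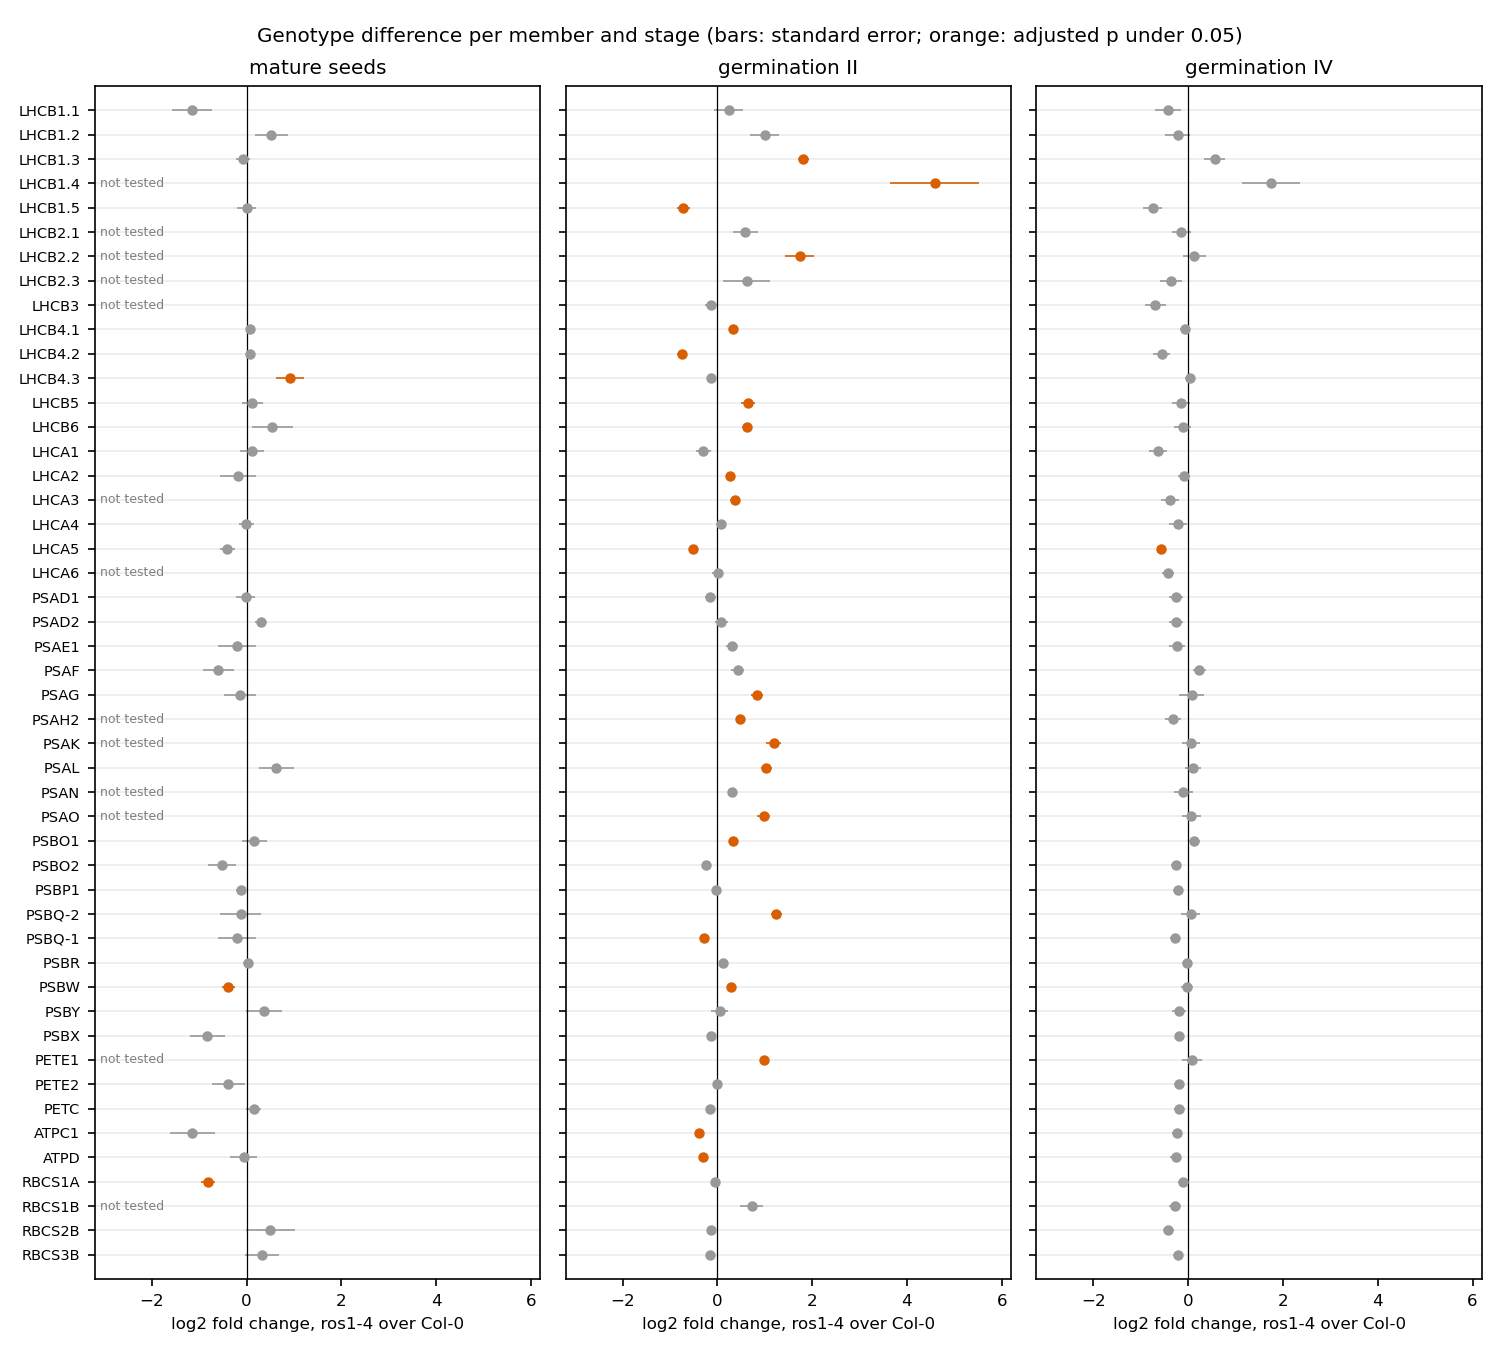
Log2 fold change of each member in seeds labelled *ros1-4* over Col-0, with a panel each for mature seeds, stage II and stage IV, and SE bars; orange marks an adjusted p under 0.05 (edgeR) and 13 members were not tested in mature seeds. At stage II the values run from -0.75 (LHCB4.2) to 4.59 (LHCB1.4) with 17 members called higher and 6 lower, and at stage IV LHCA5 alone is called.

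Marker transcripts of seed storage, root hairs and endosperm also differed in level at stage II, and their part in the result was not tested. Seed storage markers, of which 6 of 8 were higher and 0 lower, took 0.183 to 0.269% of the counts in libraries labelled *ros1-4* and 0.0331 to 0.0471% in Col-0. Root hair markers, of which 5 of 6 were higher and 0 lower, summed to 3117 to 3957 counts and 339 to 492. Of the 2 endosperm markers, EPR1 was higher by 0.77 and took nearly all of 0.305 to 0.324% and 0.125 to 0.217%, while ZOU had 1, 0 and 0 counts against 0 in all 3 Col-0 libraries. At stage IV storage markers took 0.0368 to 0.108% and 0.0224 to 0.0858%, root hair markers 9925 to 17446 and 2267 to 6764 counts, and endosperm markers 0.26 to 0.282% and 0.14 to 0.272%, and none of these lists had a member called.

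At stage IV few members differed by the test. In seeds labelled *ros1-4* 0 of 48 members were higher and 1 was lower, against 3.72% and 4.5% of all genes, with a median log2 fold change of -0.20. By unadjusted p under 0.05 the numbers were 2 and 10, and DESeq2 called 0 higher and 5 lower. The 1 member was LHCA5, with 804, 806 and 629 counts against 1060, 1001 and 1020 in Col-0 (-0.57 ± 0.10, edgeR adjusted p = 0.0171), without overlap. Its call was lost without replicate 2 of Col-0 or replicate 2 of the libraries labelled *ros1-4*, with adjusted p up to 0.0566. The shares of 1.89, 1.85 and 1.37% and of 1.80, 1.69 and 2.04% overlapped (ratio 0.924, exact two-sided permutation p = 0.7). Without the low replicate 3 of the libraries labelled *ros1-4* the median was -0.07, 2 members were called lower, and the share was higher by 0.0265 percentage points (exact two-sided permutation p = 0.8), the other way round. LHCB1.3, at 1682 ± 438 CPM and 1144 ± 312 CPM (SD, n = 3 each), did not pass (0.56 ± 0.23, edgeR adjusted p = 0.167).

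Whether the step between stages differed between the genotypes was tested as an interaction over 12 libraries. From mature seeds to stage II 5 members rose more and 2 less in seeds labelled *ros1-4*, against 10.4% and 9.24% of all genes, so the members were called no more often than genes in general. Those that rose more were LHCB1.3 (1.88 ± 0.20, edgeR adjusted p = 2.1e-05), PSAO (1.64 ± 0.48, edgeR adjusted p = 0.0276), PSBQ-2 (1.36 ± 0.36, edgeR adjusted p = 0.0151), RBCS1A (0.76 ± 0.21, edgeR adjusted p = 0.0203) and PSBW (0.67 ± 0.14, edgeR adjusted p = 0.00452). LHCB4.2 (-0.84 ± 0.15, edgeR adjusted p = 0.00135) and LHCB4.3 (-1.06 ± 0.25, edgeR adjusted p = 0.00827) rose less. For RBCS1A and LHCB4.3 the genotypes differed in mature seeds and not by the test at stage II. The mature-seed call of LHCB4.3 was itself lost in 4 of 6 fits that left out a library. The calls of PSAO, RBCS1A and PSBQ-2 were lost in 4, 2 and 1 of 12 fits that left out a library, and the count ran from 4 (without replicate 3 of mature Col-0) to 11 (without replicate 3 of Col-0 at stage II). With library size alone, which moved the median of all genes to 0.45 in this interaction, 19 members rose more and 1 less.

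From stage II to stage IV 0 members rose more and 4 rose less in seeds labelled *ros1-4*, against 1.06% and 2.4% of all genes, and 18 had an unadjusted p under 0.05, all of them negative. The 4 were LHCB1.3 (-1.28 ± 0.29, edgeR adjusted p = 0.0384), PSBQ-2 (-1.22 ± 0.26, edgeR adjusted p = 0.0303), PSAK (-1.16 ± 0.29, edgeR adjusted p = 0.0483) and PSAL (-0.96 ± 0.23, edgeR adjusted p = 0.0457). Each was higher in seeds labelled *ros1-4* at stage II and did not pass the test at stage IV. Every one of these calls was lost in 8 or 9 of 12 fits that left out a library, and the count was 16 without replicate 3 of Col-0 at stage II, 8 without replicate 1 of Col-0 at stage IV, 6 without replicate 1 of the libraries labelled *ros1-4* at stage IV, 1 without replicate 3 of that group and 0 in the other 8 fits.

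The split of counts among closely related genes was different in dry and in germinating seeds. RBCS1A held 81.8 ± 9.46% of RBCS counts in mature seeds labelled *ros1-4*, 57.2 ± 1.92% at stage II and 52.8 ± 1.28% at stage IV. The Col-0 values were 90.8 ± 2.78, 56.4 ± 1.13 and 49.3 ± 2.78% (SD, n = 3 each). PSAD1 held 19.4 ± 4.78% of PSAD counts in mature seeds labelled *ros1-4*, 73.8 ± 1.05% at stage II and 74.4 ± 0.99% at stage IV, and 23.1 ± 1.55, 76.9 ± 0.76 and 74.5 ± 1.04% in Col-0, so the pair changed places on germination. LHCB4.1 held 78.1 ± 0.70% of LHCB4 counts at stage II against 82.9 ± 0.86% in mature seeds labelled *ros1-4*, and 64.1 ± 1.11% against 83.4 ± 1.44% in Col-0.

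Between the genotypes several shares stood apart at stage II. LHCB1.1 to LHCB1.3 held 89.7 ± 0.53% of LHCB1 counts in seeds labelled *ros1-4* and 63.8 ± 2.77% in Col-0, PSBQ-1 held 81.5 ± 0.38 and 92.8 ± 0.45% of PSBQ, PSBO1 held 79.7 ± 0.46 and 72.6 ± 0.39% of PSBO and PETE1 held 7.95 ± 0.48 and 4.11 ± 0.23% of PETE (SD, n = 3 each). None of these pairs of groups overlapped. At stage IV LHCB1.1 to LHCB1.3 still held 84.9 ± 0.49 and 72.2 ± 4.86%. Of 56 comparisons of such shares over 8 families, between stages as well as between genotypes, 35 showed no overlap. Each of these had the smallest possible exact two-sided permutation p of 0.1, which became 0.16 after adjustment over the 56. None passes a threshold, and with groups of this size none could have, so the test decides nothing here. How often other gene families show no overlap was not tested, so the 35 cannot be set against genes in general.

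**Figure D4:**
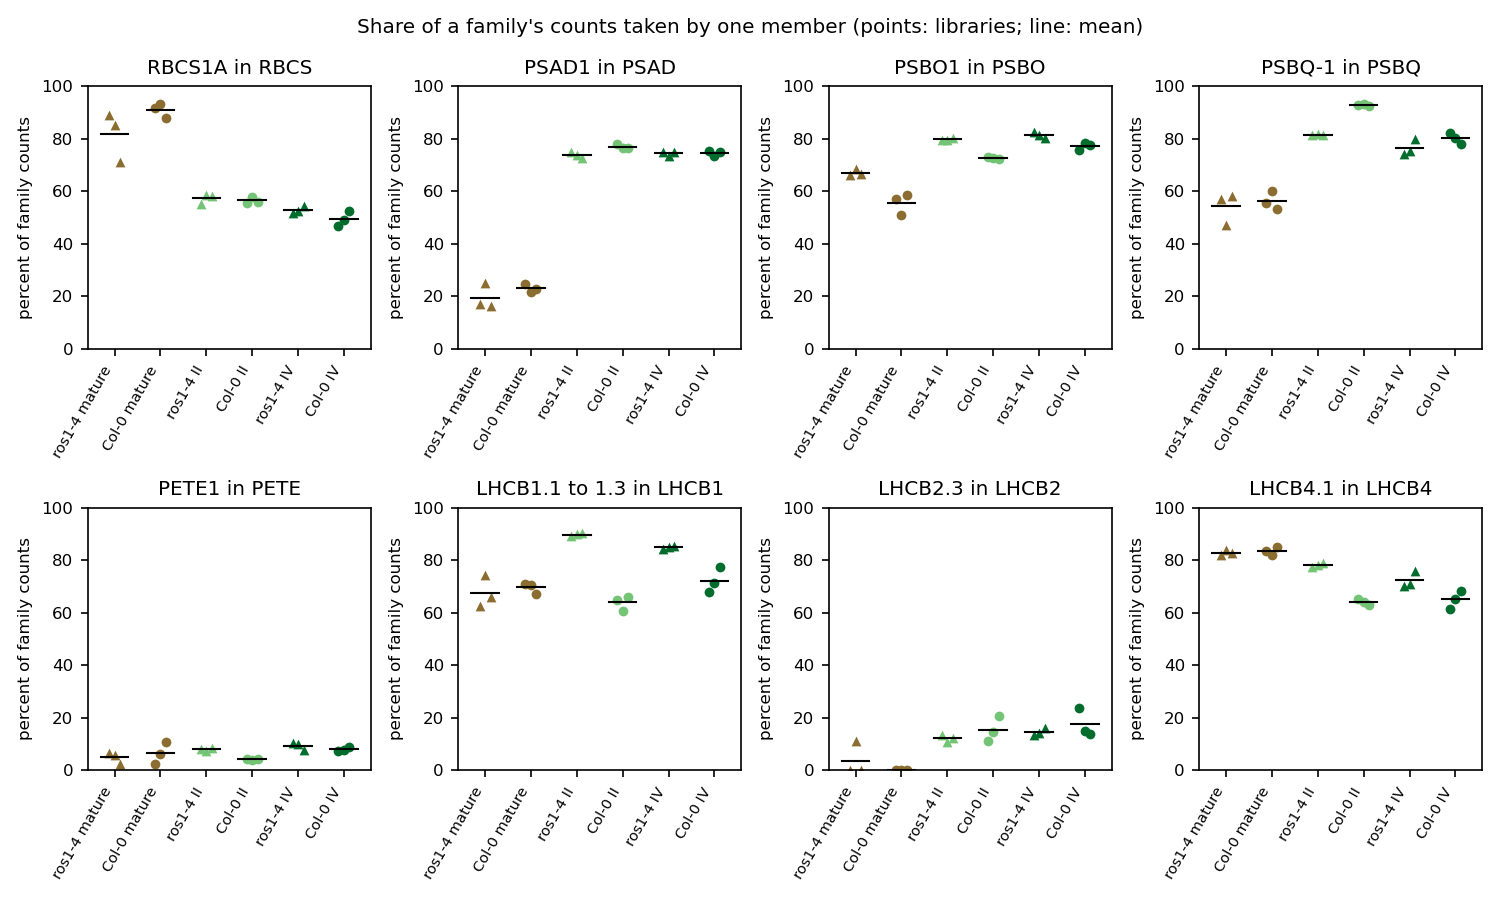
Percent of a family's counts held by 1 gene or group of genes in 8 families, in each library at the 3 stages, with libraries labelled *ros1-4* (triangles) left of Col-0 (circles) and a line at each mean. RBCS1A and LHCB4.1 hold a smaller share at stage II than in mature seeds and PSAD1 a larger one, and LHCB1.1 to LHCB1.3 stand at 89.7% in seeds labelled *ros1-4* and 63.8% in Col-0 at stage II.

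Other genes of the same pathway, listed with earlier results of these data known, were compared between stage II and mature seeds in the same fits, in which 50.3% of all genes rose and 39.3% fell in seeds labelled *ros1-4* and 47.3% rose and 41% fell in Col-0. In each genotype 22 of 24 chlorophyll synthesis genes rose and 2 fell, 13 of 16 Calvin cycle genes rose and 2 fell, and 15 of 19 other thylakoid genes rose and 4 fell. Of 17 greening regulators 10 rose and 6 fell in seeds labelled *ros1-4*, near the shares of all genes, and 12 rose and 3 fell in Col-0. GUN4, which activates the magnesium chelatase, rose by 8.52 ± 0.26 (edgeR adjusted p = 3.4e-13) and 8.50 ± 0.34 (edgeR adjusted p = 9.7e-09), and FBA2, a plastid aldolase, by 7.69 and 6.81. CAO, which makes chlorophyll b, was instead lower at stage II than in mature seeds labelled *ros1-4* (-2.51 ± 0.07, edgeR adjusted p = 1.4e-13). In Col-0 the mean level of CAO was also lower at stage II, at 43.99 CPM against 73.99 CPM in mature seeds. The fall was larger in seeds labelled *ros1-4* by the interaction (-1.78 ± 0.17, edgeR adjusted p = 6.9e-06).

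Between the genotypes at stage II most calls in these lists were lower in seeds labelled *ros1-4*. Over all genes tested, 11.4% were higher and 11.1% lower. In seeds labelled *ros1-4* 1 of 24 chlorophyll synthesis genes was higher and 19 were lower (median -0.30), and of 17 greening regulators 0 were higher and 11 lower (median -0.30). Calvin cycle genes had 2 higher and 5 lower of 16 (median -0.06), and other thylakoid genes 3 higher and 6 lower of 18 (median -0.11). CHLH, the large subunit of magnesium chelatase, had 2681, 2459 and 2505 counts against 6521, 5542 and 7631 in Col-0 (-1.54 ± 0.10, edgeR adjusted p = 1.1e-04), and PORA, a protochlorophyllide reductase, 532, 220 and 340 against 196, 98 and 133 (1.18 ± 0.34, edgeR adjusted p = 0.0406). HYH, a bZIP factor related to HY5 that acts in light signalling, had 317, 308 and 313 against 1268, 1000 and 1036 (-1.99 ± 0.09, edgeR adjusted p = 3.0e-05). ELIP2, an early light-induced chlorophyll-binding protein, had 732, 811 and 690 against 3463, 2712 and 6299 (-2.66 ± 0.28, edgeR adjusted p = 7.3e-04), and FNR2, a ferredoxin reductase, was higher by 1.08 ± 0.11 (edgeR adjusted p = 5.0e-04). The number lower ran from 11 (without replicate 3 of the libraries labelled *ros1-4*) to 22 (without replicate 3 of Col-0) for chlorophyll synthesis and from 6 to 12, without the same libraries, for the greening regulators.

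In mature seeds, where 13.8% of all genes were higher and 13% lower in seeds labelled *ros1-4*, there were 1 higher and 3 lower of 17 chlorophyll synthesis genes, 1 and 3 of 16 Calvin cycle genes, 2 and 0 of 16 other thylakoid genes and 2 and 5 of 16 greening regulators. At stage IV, where 3.72% of all genes were higher and 4.5% lower, 0 were higher in all 4 lists. There 2 of 24, 0 of 16, 4 of 18 and 1 of 17 were lower. Between stages II and IV 20.7% of all genes rose and 19.2% fell in seeds labelled *ros1-4*, and 21.8% and 16.8% in Col-0. Of 24 chlorophyll synthesis genes 9 rose and 1 fell in seeds labelled *ros1-4*, and 6 rose and 0 fell in Col-0. Of 17 greening regulators 4 rose and 2 fell in seeds labelled *ros1-4*, and 1 rose and 7 fell in Col-0.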

How the data were processed

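Messenger RNA of whole seeds was enriched, primed at random and sequenced on a BGI instrument as single reads of 50 bases. The authors quantified the reads against Araport11 transcripts with Salmon and deposited estimated counts per transcript, which were not normalized. The study's methods kept genes by their TPM level and variation, and 24273 of the 27587 genes in the table had reads in these libraries. The strand setting of the counting is not given in the sources used here. Transcripts were summed to genes and the expected counts rounded to whole numbers.

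Genes with low counts were removed with filterByExpr, and groups were compared with edgeR 4.0.16 (limma 3.58.1, R 4.3.3) by the quasi-likelihood F test with TMM normalization. Each of the 7 two-group comparisons was fitted on its own 6 libraries and each of the 2 interactions on 12. P-values were adjusted by Benjamini-Hochberg over all genes tested, with calls made below an adjusted p of 0.05. The comparisons share libraries, so they are not independent of each other. Shares of counts were compared by exact two-sided permutation tests in SciPy 1.17.1. The 18 libraries held 18737837 to 20787603 counts (median 19306863), and intervals on counts are exact 95% Poisson-based intervals that cover counting error only.

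Promoters, coding sequence identity, overlapping genes and 50-base words shared with other genes came from the RefSeq genome and annotation (TAIR10.1), in which all 69 transcripts of the members were matched. Of the 48 members, 21 share at least 1 such word with another gene and 15 overlap another gene. Scripts were tested on simulated data. Alternatives were DESeq2 1.42.0, DESeq2 size factors, library size alone, no filter, all 18 libraries in 1 fit, summed paralogs, a replicate block, a minimum absolute log2 fold change of 1, and the omission of each library in turn. The effective transcript lengths in the table were not used.

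Members given in full in a comparison were, per role, the one with most counts, the one with the largest change among those called and any called against the main direction; of other lists, the called gene with the largest rise and the one with the largest fall. Others named were chosen after their values were seen. The members and lists were chosen with earlier results of these data known.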

Additional observations from a re-analysis of the deposited data

Results flagged for a closer look

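The step between stages differed between the genotypes in 7 members from mature seeds to stage II and in 4 members from stage II to stage IV, by the test of the interaction itself (edgeR, 12 libraries, adjusted p under 0.05). Over all genes 10.4% rose more and 9.24% less in the first step and 1.06% and 2.4% in the second, so the 7 of 48 members are no more than genes in general. Of the 7 calls 4 were kept in all 12 fits that left out a library, and of the 4 calls 0 were. In the first step LHCB1.3, PSAO, PSBQ-2, RBCS1A and PSBW rose more in the seeds labelled *ros1-4* than in Col-0, by 1.88, 1.64, 1.36, 0.76 and 0.67 on the log2 scale. LHCB4.2 and LHCB4.3 rose less, with differences of -0.84 and -1.06. In the second step LHCB1.3, PSBQ-2, PSAK and PSAL rose less in the seeds labelled *ros1-4*, with differences of -1.28, -1.22, -1.16 and -0.96. LHCB1.3 and PSBQ-2 stand in both sets with opposite signs, and both interactions use the same stage II libraries.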

How the results depend on the processing

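Over the counts of members called, 100 values stayed within 1.5 times the value given in the report, 15 were larger and 23 smaller. With library size as the only scaling the median change from mature seeds to stage II was 7.07 in seeds labelled *ros1-4* and 5.89 in Col-0, that between genotypes in mature seeds was -0.35 with 13 members called, and that of the first interaction was 0.71 with 20 called. LHCB4.1 changed sign with it, to 0.74 between stage II and mature Col-0 seeds (-0.23 in the report) and to -0.26 between genotypes in mature seeds (0.08). The median of all genes moved in the same direction in these comparisons, from 0.17 to 1.14 and from -0.01 to -0.34. The cause of this common shift was not tested. A minimum absolute log2 fold change of 1 left 11 members from stage II to stage IV in seeds labelled *ros1-4* and 27 in Col-0, between genotypes 6 at stage II, 0 in mature seeds and 0 at stage IV, and 4 in the first interaction. DESeq2 called 1 member between genotypes in mature seeds, 5 at stage IV, then 11 in the first interaction and 11 in the second. All 18 libraries in 1 fit gave 5 in mature seeds, 6 at stage IV and 9 in the second interaction, and no filter gave 2 at stage IV. Summing paralogs gave a median of 0.10 between genotypes at stage II (0.25 in the report) and of 0.19 in the first interaction (0.31).

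Leaving out 1 library at a time gave, from mature seeds to stage II, 47 calls in every fit and a median of 5.48 to 5.84 in seeds labelled *ros1-4* and 46 to 47 and 4.79 to 5.01 in Col-0. From stage II to stage IV it gave 39 to 47 and 0.65 to 0.91 in seeds labelled *ros1-4* and 41 to 46 and 1.11 to 1.33 in Col-0. Between genotypes it gave 1 to 4 calls and -0.13 to 0.06 in mature seeds, 15 to 33 and 0.16 to 0.33 at stage II and 0 to 2 and -0.28 to -0.07 at stage IV. For the interactions it gave 4 to 11 and 0.18 to 0.36, then 0 to 16 and -0.51 to -0.25.

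With TMM-scaled library sizes the share of the members was higher at stage II than in mature seeds by 0.820 percentage points in seeds labelled *ros1-4* and 0.748 in Col-0, and it differed by -0.00239 between genotypes in mature seeds. Without the 10 most abundant genes the first of these was 1.21. Deviations of same-numbered replicates were only weakly correlated (-0.13 to 0.142), which does not decide whether the numbers pair the libraries. Among the 48 members, replicate 3 was most often the highest of its Col-0 group, in 28 (mature), 43 (II) and 38 (IV). The same held in mature seeds labelled *ros1-4* (28), while replicate 1 led in both germinating groups of that label (38 each). The replicate block gave 19 calls between genotypes at stage II and 0 in the second interaction, and elsewhere 1 to 47. Members with few counts in mature seeds are limited by depth there: 13 of 48 could not be tested between genotypes.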
